A study of Mus musculus with 3 samples.

Results

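Outer bulge hair follicle stem cells (HF-SCs) were chosen by the transcripts they held in single-cell RNA sequencing of mouse back skin. A cell was taken when Krt15 made up at least 0.3% of its unique molecular identifiers (UMIs, the tags that mark each captured transcript once), when it held at least 1 UMI of Krt24 and 1 of Cd34, when it held 0 UMIs of Fgf18, and when Krt6a made up under 0.05% of its UMIs. This gave 147 of 8851 kept cells. The P38 library gave 48 of 2109, the 6 months library 38 of 3502 and the 12 months library 61 of 3240. Cells were kept when they held over 200 genes, under 5000 genes and under 15% of their UMIs from mitochondrial genes. The 5 gate genes chose the cells, so their levels are descriptions and carry no test.

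The series held 1 library per age, from total back skin that was dissociated with collagenase and then trypsin. The labels give the genotype as wildtype with no treatment. The methods name Krt14-H2BGFP mice, in which a histone tagged with green fluorescent protein marks keratinocytes, and describe cells sorted to a fixed ratio of epidermal to follicle cells, while the labels describe no sort. The P38 mouse was a male in synchronized catagen (the regression of the follicle), the 6 months mouse was a female with mostly anagen skin (the growth stage), and the 12 months mouse was a male with a mix of telogen (rest) and anagen. Age, hair cycle stage, sex and library cannot be told apart in these data, and there is no replicate check between ages. Unless stated otherwise, 3 values in a row are those of P38, 6 months and 12 months, in that order, and a level is in counts per 1e6 UMIs (CPM) of the summed cells of 1 library.

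The bulge is the lasting part of the hair follicle below the sebaceous gland, and its outer layer holds quiescent stem cells that feed the hair germ at the start of each growth stage. Quiescence is known to be held by BMP signalling, and Wnt signalling together with BMP antagonists is known to release it. The outer cells sit on a basement membrane, which they help to build, and they touch an inner layer of Krt6+ niche cells that secrete Fgf18 and Bmp6. Above them lie Lgr6+ cells of the upper bulge and isthmus, and below them lies the hair germ. The outer layer is usually marked by Krt15 (a type I keratin of resting basal cells), Krt24 (a type I keratin restricted to few cells of the skin), Cd34 (a cell surface sialomucin), Postn (periostin, a secreted matrix protein), Lhx2 (a LIM homeodomain transcription factor) and Grem1 (a secreted BMP antagonist).

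The promoters of Krt24, Postn and Grem1 are shown because Krt24 was a gate gene and Postn and Grem1 were checked as markers outside the gate. Each line holds the 250 bases before the start of the gene in RefSeq (build GRCm38.p6), written 5′ to 3′ on the strand of the gene, with TATAA in capitals.
Krt24 (chr11:99285263-99285512, minus strand): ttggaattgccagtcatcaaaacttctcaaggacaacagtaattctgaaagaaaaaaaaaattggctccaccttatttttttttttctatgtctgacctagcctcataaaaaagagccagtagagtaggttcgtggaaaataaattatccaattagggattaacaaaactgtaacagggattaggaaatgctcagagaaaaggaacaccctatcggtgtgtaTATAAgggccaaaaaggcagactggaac
Postn (chr3:54360857-54361106, plus strand): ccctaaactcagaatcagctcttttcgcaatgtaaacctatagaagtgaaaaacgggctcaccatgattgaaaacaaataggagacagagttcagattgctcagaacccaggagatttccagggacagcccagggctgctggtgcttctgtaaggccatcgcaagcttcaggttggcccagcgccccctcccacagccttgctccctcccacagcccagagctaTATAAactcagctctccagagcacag
Grem1 (chr2:113758649-113758898, minus strand): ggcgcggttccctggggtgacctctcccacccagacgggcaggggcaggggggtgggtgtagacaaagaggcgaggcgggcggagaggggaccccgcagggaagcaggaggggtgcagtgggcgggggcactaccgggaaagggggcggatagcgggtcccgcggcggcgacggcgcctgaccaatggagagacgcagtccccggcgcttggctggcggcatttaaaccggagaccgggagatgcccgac
Both strands were searched for 4 motifs, and matches were allowed to overlap. The TATA box was searched as TATAA, a homeodomain core as TAATTA, a core of SOX factors as AACAAT, and the AP-1 core as TGANTCA. The TATA box was found 28 bases before the start of Krt24 and 26 bases before the start of Postn, and 22.8% of 32851 mouse windows of the same length held it. The homeodomain, SOX and AP-1 cores were found in none of the 3 windows, and were held by 4.84%, 9.42% and 6.75% of all windows. The windows also differed in base composition, with 36.8% G and C at Krt24, 52% at Postn and 72% at Grem1. In GRCm38 the other marker genes lie at chr11:100131758-100135928 (Krt15, minus strand), chr1:194938819-194961279 (Cd34, plus strand) and chr2:38339281-38369733 (Lhx2, plus strand).

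The members came to 2.28% of kept cells at P38 (exact binomial 95% interval 1.68 to 3.01), 1.09% at 6 months (0.769 to 1.49) and 1.88% at 12 months (1.44 to 2.41), intervals that cover counting error only. The 6 months library held many shallow cells, with a median of 1019 UMIs in kept cells, against 16170.0 at P38 and 11438.5 at 12 months. Among cells with at least 1000 genes the share at 6 months was 2.29%, and after thinning every cell to 3000 UMIs the shares were 1.64%, 1.55% and 1.42%. The lower share at 6 months was not seen at matched depth. The members held 670053, 418384 and 433892 UMIs in all, with medians of 14185, 10451 and 6541 per cell and of 3131.5, 3077 and 2078 genes. The 3 libraries shared 5 (P38 and 6 months), 2 (P38 and 12 months) and 136 (6 months and 12 months) barcodes before the filter, and 2 members carried a barcode found in more than 1 library.

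Of the 5 gate criteria, Krt6a removed most at P38 and Krt24 removed most at 6 and 12 months. Krt24 alone kept out 95, 78 and 61 cells that met the other 4 criteria, and Krt6a alone kept out 128, 15 and 1. Cd34 alone kept out 19, 5 and 34 cells, Fgf18 alone 8, 9 and 6, and Krt15 alone 1, 1 and 3. The members nearest to the Krt15 limit had 0.339%, 0.323% and 0.440% of their UMIs from it, and the nearest cells outside had 0.111%, 0.286% and 0.289%. For Krt6a, the nearest members had 0.0493%, 0.0498% and 0.0499%, and the nearest cells outside had 0.0502%, 0.0532% and 0.132%. Many members were admitted on a single transcript, since 12, 6 and 11 of them held 1 UMI of Krt24 and 6, 8 and 8 held 1 UMI of Cd34. Krt6a was at 0 UMIs in 8, 18 and 38 members.

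Postn, Lhx2 and Grem1 took no part in the gate and were checked as markers. Postn was held by 48 of 48, 38 of 38 and 61 of 61 members, Lhx2 by 44 of 48, 38 of 38 and 61 of 61, and Grem1 by 35 of 48, 27 of 38 and 50 of 61. In members thinned to 3000 UMIs the shares with a UMI were 89.4%, 94.6% and 96.7% for Postn, 51.1%, 89.2% and 81.7% for Lhx2 and 31.9%, 43.2% and 63.3% for Grem1. Basal cells of the interfollicular epidermis (IFE), taken by a gate on Krt14 and Ly6a that excluded cells with Sox9, Krt24 or Cd34, gave the background. That gate also set upper limits on Krt79 and Krt10. In thinned IFE basal cells Lhx2 was in 0.629%, 3.54% and 0.556% and Grem1 in 0.629%, 0% and 0.139%, far below the shares in the members. Postn was in 20.1%, 34.5% and 23.2% of thinned IFE basal cells. Lgr5, a Wnt pathway receptor of the lower bulge and hair germ, was in 36.2%, 21.6% and 48.3% of thinned members.

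**Figure D1:**
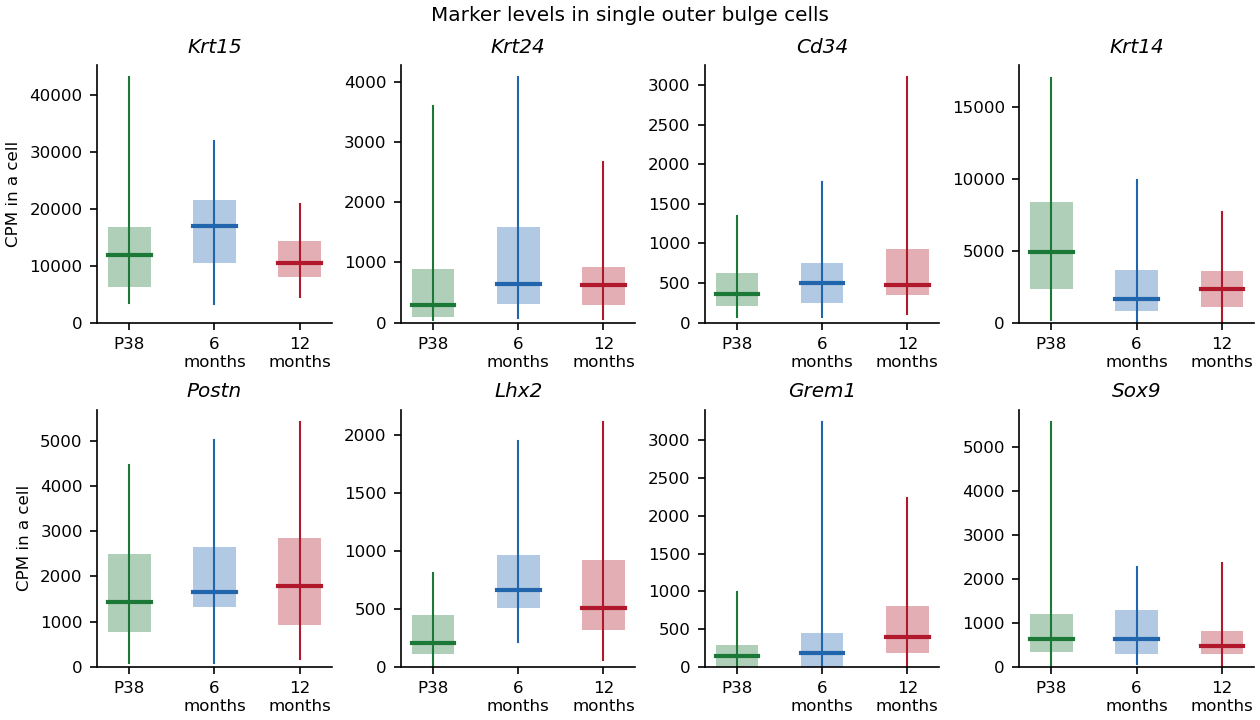
Levels of gate and marker genes per member (CPM within the cell), in 1 panel per gene with the 3 libraries side by side. The line runs from the lowest to the highest cell, the box spans the quartiles and the bar is the median. Krt15 is high in every member by the gate, and Postn has a UMI in 147 of 147 members, whereas Grem1 has none in 13, 11 and 11 of them.

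Within a library the members varied widely. In single cells Krt15 ran from 3385 to 43164 CPM at P38 with a median of 11898, from 3234 to 31886 CPM at 6 months with a median of 17008, and from 4399 to 20791 CPM at 12 months with a median of 10420.5. Postn per cell had medians of 1438, 1653 and 1797 CPM, and Lhx2 had medians of 204, 662 and 511 CPM. Single cells of 1 mouse are not replicates, so no spread between cells was used as an error of an age. Summed over members, Krt15 stood at 12868, 16786 and 10802 CPM, Krt24 at 527, 1066 and 726 CPM and Cd34 at 393, 583 and 659 CPM.

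Apart from ribosomal protein and mitochondrial genes, the 20 genes with most UMIs in the members included Krt15 and 2 other keratins, Krt5 at 5447, 5889 and 5234 CPM and Krt14 at 5653, 2985 and 2777 CPM. These are counts of captured 3′ ends with no correction for length. The others included Apoe (a lipid carrier) at 12408, 7775 and 9751 CPM, S100a6 (a calcium-binding protein) at 9095, 7969 and 7398 CPM and Cxcl14 (a chemokine of epithelia) at 5462, 7498 and 3296 CPM. Malat1, a nuclear noncoding RNA, stood at 22304, 20216 and 28769.8 CPM. Fos, an immediate early gene that dissociation of tissue is known to induce, stood at 5734, 5409 and 5489.9 CPM, and Hspb1, a small heat shock protein, at 9216, 4015 and 1291 CPM. Col17a1, the hemidesmosome collagen, stood at 1506, 1616 and 1394 CPM and varied little between libraries.

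Markers of immune cells, endothelial cells and melanocytes were at or near 0 in the members, while IFE suprabasal and upper follicle markers were not. The 6 T cell markers were at 0 UMIs in all 3 libraries, and the summed markers of endothelial cells, melanocytes, and Langerhans cells and macrophages lay between 0 and 7.17 CPM. Of these lists, 3 of 4 endothelial, 2 of 4 melanocyte and 3 of 5 Langerhans and macrophage markers were at 0 UMIs in all members. The 5 fibroblast markers summed to 19.4, 66.9 and 64.5 CPM, the 5 inner root sheath and shaft markers to 23.9, 38.2 and 20.7 CPM, and the 4 erythrocyte markers to 10.4, 119.5 and 20.7 CPM. The 5 upper follicle markers summed to 2004, 1664 and 714 CPM, most of it from Krt17 at 1661, 1515 and 678 CPM, against 2322, 1759 and 2717 CPM in Lgr6 cells. The 5 IFE suprabasal markers summed to 1616, 999 and 954 CPM, most of it from Sbsn (suprabasin), against 996, 1109 and 800.2 CPM in Lgr6 cells and 354, 262 and 381 CPM in IFE basal cells. Sbsn was called higher in the members than in Lgr6 cells (log2 fold change 1.91 ± 0.40 (SE), adjusted p = 0.0106) and than in the hair germ (log2 fold change 1.67 ± 0.41 (SE), adjusted p = 0.04603), and both calls were lost without P38 and without 6 months. The 5 inner bulge markers summed to 504, 253 and 657 CPM, against 2340.0, 1387 and 773 CPM in the gated inner bulge cells. Tgm5, a transglutaminase used to gate the inner layer, stood at 266, 95.6 and 551 CPM in the members and 266, 373 and 339 CPM in the inner bulge cells, so this gene did not separate the layers. Proliferation markers came to 64.2, 14.3 and 9.22 CPM, and 1 cell at P38 held 37 of the 43 UMIs of these 5 genes in that library.

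The members were compared with 3 neighbouring classes of the same libraries, gated in the same way. Inner bulge niche cells held Fgf18 and Tgm5 (91, 20 and 24 cells). Lgr6 upper bulge cells held Lgr6 with Krt15 at 0.1% or more of UMIs and had 0 UMIs of Krt24 and Fgf18 (172, 81 and 386 cells). Hair germ cells held Lgr5 and Cdh3 with Krt14 at 0.1% or more and had 0 UMIs of Krt24, Cd34, Lgr6 and Fgf18 (50, 21 and 59 cells). The Lgr6 and hair germ gates also asked for Krt6a under 0.05% of UMIs, and the inner bulge gate did not. The UMIs of each class were summed per library, and the 12 sums were fitted together by edgeR with the library as a block, so that n = 3 libraries in each class. The 3 libraries differ in age, so the spread between them holds the difference between ages. Gate genes got no test, and Benjamini-Hochberg adjusted p-values were taken over all genes tested. Genes that travel with a gate gene in the same cells could differ through the gate itself, and the part of this in the counts was not tested.

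Against the Lgr6 upper bulge, 393 of 9138 genes were higher in outer bulge cells (4.3%) and 298 were lower (3.26%) at an adjusted p under 0.05, which together were 7.56% of those tested, and DESeq2 called 8.08%. Counts of list genes against this class are to be read beside the 4.3% and 3.26%. Genes called higher included bulge transcription factors such as Lhx2, collagens and other matrix genes such as Col6a1, the Wnt inhibitor Sfrp1 and the BMP antagonist Grem1. Genes called lower included Wnt ligands, antigen presentation genes, cell cycle genes and genes of the epidermal surface such as Ly6d. Without the P38, the 6 months or the 12 months library, 165, 50 and 302 genes were called higher and 81, 15 and 190 lower. Of the Lgr6 cells, 39, 34 and 184 also met the IFE basal gate, and without them 216 genes were called higher and 154 lower.

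**Figure D2:**
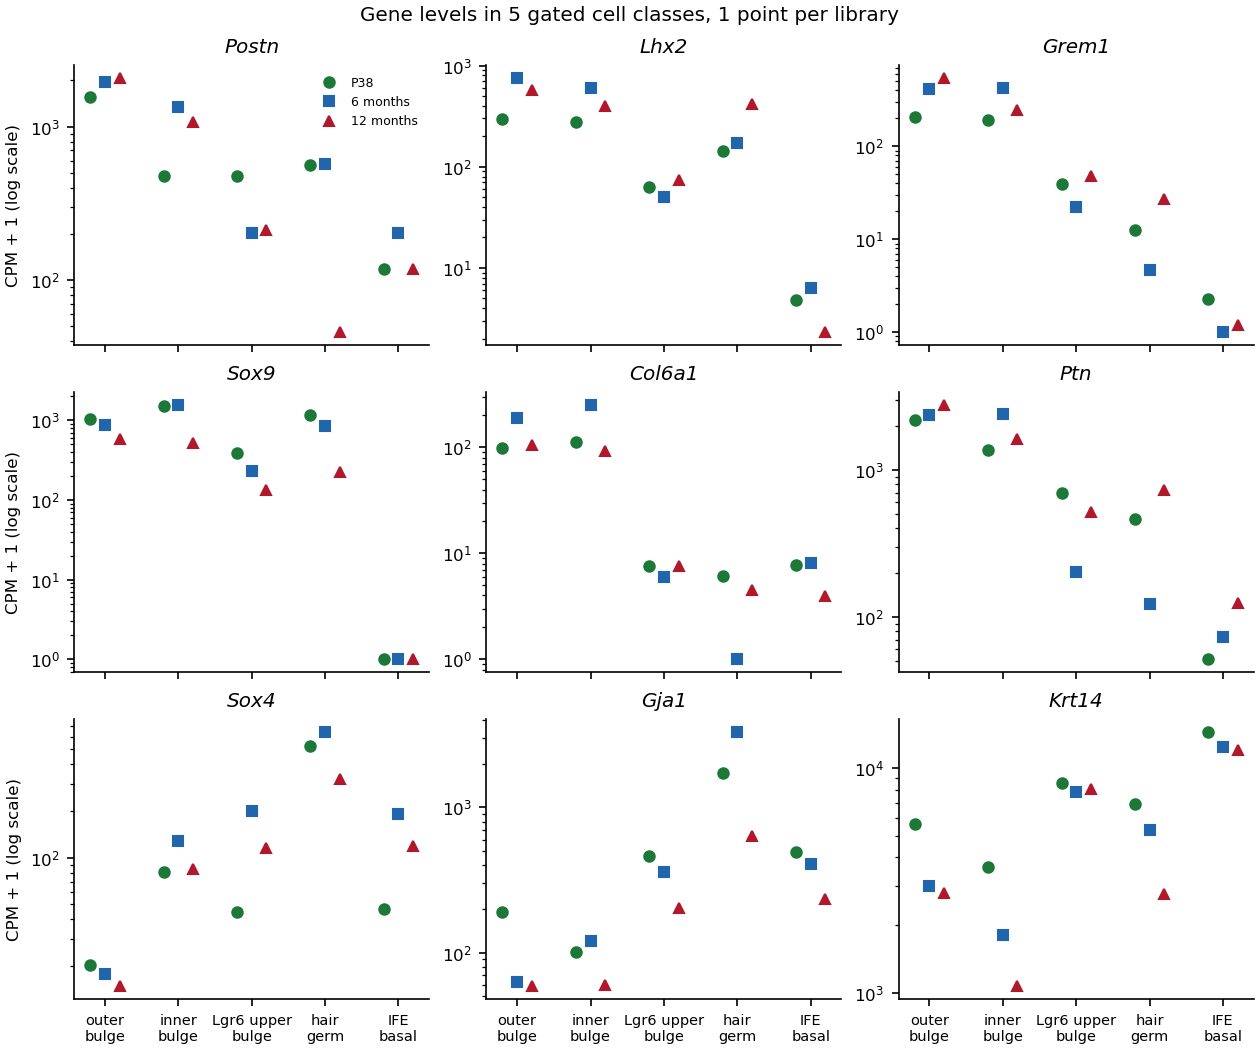
CPM + 1 on a log axis of 9 genes in outer bulge, inner bulge, Lgr6 upper bulge, hair germ and IFE basal cells, with 1 point per library. The outer bulge points of Postn, Lhx2, Grem1 and Col6a1 lie above every Lgr6 point, the hair germ points of Sox4 and Gja1 lie above those of the other classes, and Krt14 is highest in IFE basal cells, which were gated on it. Sox9 is 0 in IFE basal cells by their gate.

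Of 18 bulge transcription factors tested, 9 were higher in outer bulge cells than in Lgr6 cells and 2 were lower, with a median log2 fold change of 1.38 against -0.02 over all genes tested. Lhx2, which is known to maintain the stem cells, stood at 294, 753 and 578 CPM in the members and 61.5, 49.4 and 73.6 CPM in Lgr6 cells (log2 fold change 2.96 ± 0.36 (SE), adjusted p = 6.1e-04). Every member sum lay above every Lgr6 sum. Tbx1, a T-box factor of the bulge, stood at 103, 385 and 274 CPM against 21.96, 21.4 and 23.9 CPM (log2 fold change 3.17 ± 0.38 (SE), adjusted p = 6.1e-04), and P38 was the lowest of the 3 member sums. Sox9, which specifies follicle stem cells, stood at 1034, 887 and 585 CPM against 386, 227 and 135 CPM (log2 fold change 1.77 ± 0.26 (SE), adjusted p = 0.0015). Nfib, a nuclear factor I protein of the same cells, stood at 1389, 1635 and 1786 CPM against 517, 577 and 542 CPM (log2 fold change 1.49 ± 0.20 (SE), adjusted p = 7.9e-04). The other factors called higher were Tcf7l1, Tcf7l2, Foxc1, Foxp1 and Runx1. Gata3 and Klf5, factors of epidermal and upper follicle differentiation, were lower. Klf5 stood at 251, 45.4 and 29.96 CPM against 704, 494 and 243 CPM, and its member sum at P38 lay above the lowest Lgr6 sum. Without the 6 months library, Lhx2, Foxp1, Tbx1 and Nfib kept their call and neither of the lower factors did, and without P38 the 5 kept were Sox9, Lhx2, Foxp1, Tbx1 and Nfib, with Klf5 among the lower.

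Collagen and matrix genes had a median log2 fold change of 1.87 against the Lgr6 cells, with 11 of 26 tested higher and 1 lower. Col6a1, a chain of collagen VI that lies beside basement membranes, stood at 97.01, 186 and 104 CPM against 6.59, 4.94 and 6.54 CPM (log2 fold change 4.12 ± 0.35 (SE), adjusted p = 1.4e-04). Its partner chain Col6a2 stood at 19.4, 81.3 and 32.3 CPM against 1.57, 0 and 2.43 CPM (log2 fold change 4.28 ± 0.58 (SE), adjusted p = 8.9e-04). Both chains were near 0 in the Lgr6 cells of all 3 libraries. Postn stood at 1564, 1950.4 and 2074 CPM against 479, 202 and 213 CPM (log2 fold change 2.65 ± 0.65 (SE), adjusted p = 0.0238), and this call was lost without P38, without 6 months, without the library block and without the Lgr6 cells that met the IFE gate. Ptn (pleiotrophin, a heparin-binding growth factor) stood at 2176, 2359 and 2763 CPM against 699.5, 200.2 and 519 CPM (log2 fold change 2.40 ± 0.48 (SE), adjusted p = 0.00798). Ccn2, a matricellular protein that YAP is known to induce, stood at 731, 201 and 502 CPM against 115, 44.5 and 69.3 CPM (log2 fold change 2.54 ± 0.42 (SE), adjusted p = 0.0029), with its lowest member sum at 6 months. Col5a2, Col18a1, Npnt (nephronectin, the anchor of the arrector pili muscle), Egfl6, Sparc and Spon2 were also higher, and Thbs2 (thrombospondin 2) was lower. Without P38, 6 months or 12 months 8, 4 and 11 of the 11 were called, and the 4 without 6 months were Col6a1, Col6a2, Ccn2 and Ptn. Of the 18 hemidesmosome and integrin genes tested, Itgb6 and Itgb8, which form receptors that release active TGF-beta, were higher, a call that both lost without the 6 months library. Col17a1 was not called, at 1030.2, 968 and 777 CPM in Lgr6 cells (log2 fold change 0.65 ± 0.43 (SE), adjusted p = 0.419).

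Signalling genes were split by role. Among 9 Wnt inhibitors tested, Dkk3, Sfrp1 and Sostdc1 were higher in the members and Apcdd1 was lower. Sfrp1, a secreted Wnt-binding protein, stood at 515, 1599 and 885 CPM against 82.2, 128 and 56.8 CPM (log2 fold change 3.35 ± 0.51 (SE), adjusted p = 0.0016), and all member sums lay above all Lgr6 sums. Dkk3, a secreted protein of the dickkopf family, stood at 88.1, 232 and 286 CPM against 25.1, 5.77 and 9.72 CPM (log2 fold change 3.75 ± 0.56 (SE), adjusted p = 0.0015), and Sfrp1 was the only inhibitor called in each fit that left out 1 library. Of 23 Wnt ligands and receptors tested, the 6 that were higher were receptors (Fzd1, Fzd2, Fzd3, Fzd7, Lgr4 and Lgr5), and the 7 that were lower were 6 ligands (Wnt3, Wnt5a, Wnt6, Wnt10a, Wnt10b and Wnt16) and the receptor Fzd10. Lgr5 stood at 140.3, 122 and 207 CPM in the members against 29.8, 3.296 and 26.9 CPM in Lgr6 cells (log2 fold change 2.87 ± 0.46 (SE), adjusted p = 0.0023). The receptors Fzd1, Fzd3 and Lgr5 kept their call without the 6 months library. Of the 7 lower genes 1 was called without P38 (Wnt6), 0 without 6 months and 1 without 12 months (Wnt10a).

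Among 23 BMP genes tested, the antagonists Grem1, Nog and Fstl1 and the target genes Id2 and Id3 were higher and the ligand Bmp4 was lower. Grem1 stood at 207, 416 and 544 CPM against 38.3, 21.4 and 46.9 CPM (log2 fold change 3.26 ± 0.40 (SE), adjusted p = 6.1e-04), with no overlap. Nog (noggin) was low in both classes, at 34.3, 11.95 and 23.05 CPM against 4.39, 4.12 and 0.561 CPM (log2 fold change 3.17 ± 0.57 (SE), adjusted p = 0.0044). Id2, a direct target of BMP signalling, stood at 387, 709.9 and 369 CPM against 133, 60.98 and 115 CPM (log2 fold change 2.10 ± 0.38 (SE), adjusted p = 0.0047). Grem1 kept its call in each fit that left out 1 library, Id2 lost it without 6 months, Nog without P38 and Bmp4 in each. Of 12 FGF and hedgehog genes tested, 5 were higher (Fgf1, Fgfr1, Gli3, Gas1 and Boc) and none was lower, with Fgfr1 and Gas1 called without P38 and Fgfr1 alone without 6 months. Fgfr1, an FGF receptor, stood at 216, 225 and 203 CPM against 69.95, 48.6 and 48.2 CPM (log2 fold change 1.87 ± 0.27 (SE), adjusted p = 0.0012). Of 15 TGF-beta genes Ltbp2 and Ltbp3, which bind latent TGF-beta, were higher, and of 11 Notch genes the ligand Jag1 was higher and the ligand Dll1 lower. Ltbp2 and Ltbp3 lost their call without 6 months, Jag1 lost it in each fit that left out 1 library, and Dll1 kept it in each. Of 23 guidance and neural genes, Ntf5, Sema3e, Plxna2 and Ephb6 were higher and Sema3c and Robo1 lower, and none of the 6 was called without 6 months. Sema3e, a secreted semaphorin, stood at 121, 105 and 145 CPM against 43.9, 12.4 and 20.6 CPM and Plxna2, a plexin receptor, at 67.2, 100.4 and 152 CPM against 21.96, 22.2 and 20.2 CPM, and neither overlapped.

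The 10 largest called differences upward against the Lgr6 cells, among genes with at least 50 CPM in every member sum and 1 direction in all libraries, were Kcnk2, S100a4, Pdzrn4, Col8a2, Col6a1, Dkk3, Ltbp2, Il31ra, Wfdc3 and Rnf152. Kcnk2, a background potassium channel, stood at 113, 206 and 283 CPM against 8.16, 2.47 and 4.67 CPM (log2 fold change 5.07 ± 0.71 (SE), adjusted p = 0.00104). S100a4, a calcium-binding protein of motile cells, stood at 729.8, 2785 and 3192 CPM against 199, 37.9 and 71.02 CPM (log2 fold change 4.99 ± 1.08 (SE), adjusted p = 0.0126). The member sums of S100a4 at 6 and 12 months stood far above that at P38. Col8a2, a chain of collagen VIII, stood at 104, 88.4 and 106 CPM against 8.78, 0.824 and 2.62 CPM (log2 fold change 4.49 ± 0.54 (SE), adjusted p = 6.1e-04). Il31ra, the receptor chain of the itch cytokine IL-31, stood at 50.7, 52.6 and 127 CPM against 6.901, 4.12 and 5.42 CPM (log2 fold change 3.64 ± 0.34 (SE), adjusted p = 1.5e-04). All 10 were called without P38, 4 without 6 months (Kcnk2, Col8a2, Col6a1 and Il31ra) and 9 without 12 months.

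The 10 largest called differences downward were Il33, Sema3d, Ly6a, Ly6d, Serpinb2, Il1r2, Sox6, Defb6, Clca3a2 and Arhgdib. Il33, an alarmin of keratinocyte nuclei, held 1 UMI in the 147 members, at 1.49, 0 and 0 CPM against 91.9, 103 and 66.2 CPM in Lgr6 cells (adjusted p = 1.4e-04). Ly6a, the surface protein Sca-1 of the epidermis, stood at 1.49, 0 and 13.8 CPM against 136, 193 and 287 CPM (log2 fold change -5.45 ± 0.64 (SE), adjusted p = 5.8e-04). Ly6d, a surface protein of stratified epithelia, stood at 149, 16.7 and 62.2 CPM against 1572, 2125 and 2125 CPM (log2 fold change -5.12 ± 0.86 (SE), adjusted p = 0.0029). The groups did not overlap for any of these 10 genes, which picking the largest differences with 1 direction in all libraries makes likely. Clca3a2, a protein linked to chloride channels, stood at 44.8, 31.1 and 39.2 CPM against 619, 788 and 603 CPM (log2 fold change -4.33 ± 0.57 (SE), adjusted p = 7.9e-04). Il1r2, the decoy receptor of interleukin-1, stood at 4.48, 11.95 and 2.305 CPM against 150.3, 179 and 137 CPM (log2 fold change -4.79 ± 0.85 (SE), adjusted p = 0.0044). Of the 10, 5 were called without P38, 2 without 6 months (Il33 and Ly6a) and 8 without 12 months.

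Some antigen presentation, proliferation and glycolysis genes were called lower in the members than in Lgr6 cells, and 1 of these calls held without 6 months (Top2a). Of 20 antigen presentation genes tested, 8 were lower (B2m, H2-Q7, Tap1, Psmb8, Psmb9, Nlrc5, Cd74 and Ifitm3) and none was higher, and the median log2 fold change was -1.11, with 4 of the 8 called without P38, 0 without 6 months and 5 without 12 months. B2m, the shared light chain of class I molecules, stood at 1133, 731 and 731 CPM against 1744, 1740.3 and 1578 CPM (log2 fold change -1.04 ± 0.30 (SE), adjusted p = 0.0489). Of 22 proliferation genes, 8 were lower and none higher, and of 22 hypoxia and glycolysis genes the 4 glycolytic enzymes Aldoa, Pgk1, Pgam1 and Ldha were lower and none was higher. Pgk1 stood at 80.6, 136 and 64.5 CPM against 369, 376 and 165 CPM (log2 fold change -1.76 ± 0.34 (SE), adjusted p = 0.0062). Without P38, 6 months or 12 months 4, 1 (Top2a) and 2 of the proliferation genes and 0, 0 and 2 (Pgk1 and Ldha) of the enzymes were called. Of 12 keratins, Krt1, Krt14 and Krt79 were lower, and Krt1 alone kept its call without 6 months. Krt14 stood at 5653, 2985 and 2777 CPM against 8566, 7795 and 8042 CPM (log2 fold change -1.29 ± 0.26 (SE), adjusted p = 0.0079), while Krt5, its pairing partner, was not called at 6739.7, 5854 and 6045 CPM in Lgr6 cells. Of the heat shock genes 2 of 15 were higher (Hspa1b and Bag3), of which Hspa1b alone was called without 12 months and neither without P38 or 6 months. Of 30 published bulge markers tested 18 were higher and none lower, with 14, 5 and 16 called without P38, 6 months and 12 months. Such markers were chosen for these cells, so their count is a check of the gate.

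**Figure D3:**
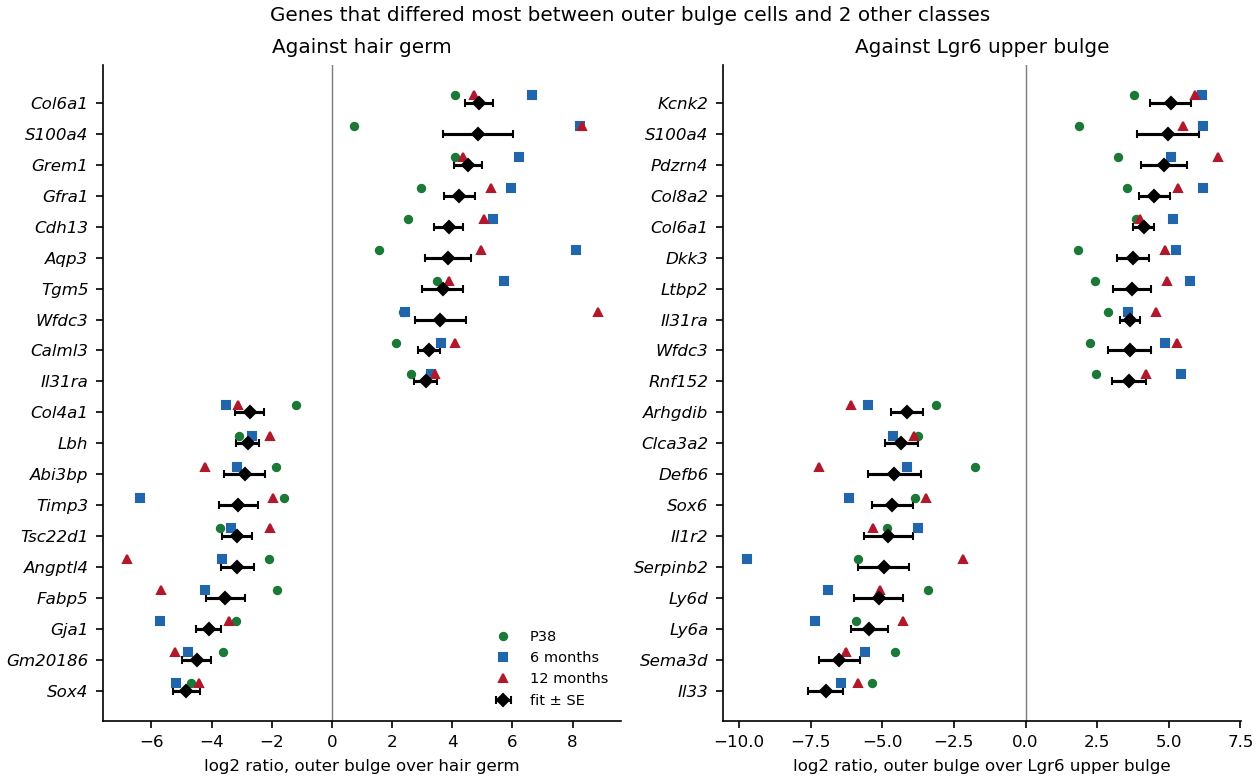
Log2 fold change of outer bulge cells against hair germ and against Lgr6 upper bulge for the 20 genes named in each comparison, with the fitted value and its SE and the ratio in each of the 3 libraries as points. All 3 library points of each gene lie on 1 side of 0, by the rule that named them.

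Against the hair germ, 152 of 9135 genes were higher in outer bulge cells (1.66%) and 93 were lower (1.02%), together 2.68% of those tested, and DESeq2 called 3.8%. Counts of list genes against this class are to be read beside the 1.66% and 1.02%. The members had more Grem1, collagen VI, Aqp3 and S100a4 transcripts, and the hair germ had more of the transcription factor Sox4, the gap junction gene Gja1, the basement membrane collagen Col4a1 and 4 cell cycle genes. The hair germ cells differed between libraries, since Krt15, which is not in their gate, stood at 8233, 1522 and 1075 CPM in them, and with only the hair germ cells that had Krt15 at 0.1% of UMIs or more (48, 10 and 25 cells) 108 genes were called higher and 75 lower. Without P38, 6 months or 12 months 122, 5 and 47 genes were called higher and 51, 4 and 56 lower. The 5 and 4 genes called without 6 months were Arhgap44, Ccn2, Col6a1, Grem1 and Serpinb11 (higher) and Gja1, Gm20186, Hist1h2ap and Sox4 (lower).

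Grem1 stood at 207, 416 and 544 CPM in the members and 11.6, 3.702 and 26.4 CPM in the hair germ (log2 fold change 4.51 ± 0.46 (SE), adjusted p = 3.7e-04), with no overlap. Col6a1 stood at 5.15, 0 and 3.51 CPM in the hair germ (log2 fold change 4.90 ± 0.47 (SE), adjusted p = 3.6e-04), again below every member sum. Gfra1, a receptor of glial cell line-derived neurotrophic factor, stood at 85.1, 112 and 85.3 CPM against 10.3, 0 and 1.76 CPM (log2 fold change 4.23 ± 0.51 (SE), adjusted p = 0.0013). Aqp3, the water and glycerol channel of basal keratinocytes, stood at 1334, 1518 and 767 CPM against 456, 3.702 and 24.6 CPM (log2 fold change 3.85 ± 0.78 (SE), adjusted p = 0.0186). The hair germ level of Aqp3 was much higher at P38 than in the other libraries. Calml3, a calmodulin-like protein of epithelia, stood at 404, 614 and 599 CPM against 92.6, 48.1 and 35.1 CPM (log2 fold change 3.23 ± 0.38 (SE), adjusted p = 9.8e-04). Cdh13 (T-cadherin), S100a4, Tgm5 (a transglutaminase and inner bulge marker), Wfdc3 and Il31ra complete the 10 largest differences upward. All 10 were called without P38, 2 without 6 months (Col6a1 and Grem1) and 6 without 12 months.

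Sox4, a SOX factor of activated progenitors, stood at 19.4, 16.7 and 13.8 CPM in the members and 522, 644 and 321 CPM in the hair germ (log2 fold change -4.84 ± 0.45 (SE), adjusted p = 3.6e-04). Gja1 (connexin 43) stood at 189.5, 62.1 and 57.6 CPM against 1735, 3309.8 and 633 CPM (log2 fold change -4.10 ± 0.42 (SE), adjusted p = 3.7e-04). Both genes were lower in the members in every library, with no overlap. Tsc22d1, a leucine zipper protein that responds to TGF-beta, stood at 40.3, 19.1 and 41.5 CPM against 542, 207 and 178 CPM (log2 fold change -3.15 ± 0.50 (SE), adjusted p = 0.0053). Col4a1, a chain of the basement membrane collagen IV, stood at 23.9, 21.5 and 18.4 CPM against 55.3, 259 and 169 CPM (log2 fold change -2.73 ± 0.47 (SE), adjusted p = 0.0084). Lbh, a transcription cofactor downstream of Wnt, stood at 14.9, 23.9 and 11.5 CPM against 131, 155 and 51.8 CPM (log2 fold change -2.79 ± 0.38 (SE), adjusted p = 0.0027). Fabp5 and Angptl4 (lipid handling), Timp3 (a metalloproteinase inhibitor), Abi3bp (a matrix protein) and Gm20186 complete the 10 largest differences downward. Gm20186 is a predicted gene whose reads may be shared with near copies, so its value is uncertain. Of the 10, 9 were called without P38, 3 without 6 months (Gja1, Gm20186 and Sox4) and 7 without 12 months.

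Of the 18 bulge transcription factors tested against the hair germ, 1 was higher (Foxc1) and none was lower. Foxc1, which keeps the stem cells quiescent, stood at 59.7, 141 and 119.8 CPM against 10.3, 3.702 and 24.6 CPM (log2 fold change 2.64 ± 0.40 (SE), adjusted p = 0.0047), and its call was lost without 6 months. Lhx2 was not called, at 142, 170.3 and 417 CPM in the hair germ (log2 fold change 1.13 ± 0.35 (SE), adjusted p = 0.115), nor was Sox9, at 1154, 844 and 226 CPM (log2 fold change 0.39 ± 0.26 (SE), adjusted p = 0.5005). For both genes the member and hair germ sums overlapped. Postn was also not called, at 558, 574 and 44.8 CPM in the hair germ (log2 fold change 2.47 ± 0.66 (SE), adjusted p = 0.0684), although its sums did not overlap, and DESeq2 called it higher.

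Among matrix genes 4 of 26 tested were higher than in the hair germ (Col6a1, Col6a2, Ccn2 and Ptn) and Col4a1 was lower, with 3, 2 and 2 of the 4 called without P38, 6 months and 12 months. Of 23 BMP genes Grem1 and Nog were higher and the receptor Acvr1 lower, of 9 Wnt inhibitors Dkk3 was higher, and of 22 Wnt ligands and receptors Fzd3 was higher. Fzd3 and Acvr1 lost their call in each fit that left out 1 library, Nog without P38 or 6 months, and Dkk3 without 6 or 12 months. Of 22 proliferation genes Top2a, Cdk1, Mcm5 and Ube2c were lower and none was higher, a call lost for all 4 without 6 months and without 12 months. Dsg3 (a desmosomal cadherin) was higher and Gja1 and Gjb2 (gap junctions) lower among 23 junction genes, and Gja1 alone kept its call without 6 months. Bdnf, Sema3e and Plxna2 were higher among 23 guidance and neural genes, and Bdnf stood at 67.2, 169.7 and 11.5 CPM against 11.6, 0 and 3.51 CPM. The call was lost for all 3 without 6 months. Of 29 published bulge markers 8 were higher and Timp3 was lower, with 8, 1 (Grem1) and 4 of the 8 called without P38, 6 months and 12 months.

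Against the inner bulge niche cells, edgeR called 0 of 9138 genes in either direction (0%), while 598 genes (6.54%) had an unadjusted p under 0.05 and DESeq2 called 28 (0.306%), of which 8 were higher and 20 lower in outer bulge cells. With only the 6 sums of the 2 layers in the edgeR fit 13 genes were called higher and 24 lower, and with no filter on low counts 63 and 145. In simulated data 16.0% of 2-fold changes against this class were recovered, so genes that were not called may still differ. The inner bulge gate did not ask for low Krt15, Krt24 or Cd34, and 42, 9 and 10 of its 91, 20 and 24 cells met those 3 criteria. Its cells at 12 months included 1 with 6.58% of its UMIs from the spinous genes Krt1, Krt10 and Krtdap, which held 15.8% of the UMIs of that class. In inner bulge cells Lhx2 stood at 275, 592 and 401 CPM, Grem1 at 193, 421 and 247 CPM and Col6a1 at 111, 250.1 and 91.97 CPM, and the sums of all 3 genes overlapped those of the members. Postn stood at 478, 1338 and 1070.2 CPM there, below all member sums (log2 fold change 0.93 ± 0.62 (SE), adjusted p = 0.854).

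The genes that DESeq2 called lower in outer bulge cells included Sbsn and Sprr1a, which keratinocytes are known to express as they differentiate. Sbsn (suprabasin) stood at 1388, 853 and 871 CPM in the members and 3332, 2356 and 5832 CPM in inner bulge cells (log2 fold change -1.97 ± 0.41 (SE), adjusted p = 0.144 by edgeR, adjusted p = 0.0124 by DESeq2). Sprr1a, a precursor of the cornified envelope, stood at 340.3, 14.3 and 2.305 CPM against 2041, 417 and 748 CPM (log2 fold change -3.80 ± 0.76 (SE), adjusted p = 0.144 by edgeR, adjusted p = 0.0238 by DESeq2). For both genes the sums of the layers did not overlap. The inner bulge sums of the oldest library include the cell rich in spinous genes described above. The part of that cell in the Sbsn and Sprr1a values was not tested. Only edgeR was run without that cell, so the DESeq2 calls were not checked for it. Sox4 was lower here too by DESeq2 (adjusted p = 0.0065), at 80.2, 127 and 83.6 CPM in inner bulge cells, and edgeR did not call it (log2 fold change -2.50 ± 0.46 (SE), adjusted p = 0.144). Trp63, the master factor of basal keratinocytes, was among the 8 called higher by DESeq2 (adjusted p = 0.0220), at 361, 454 and 512 CPM against 198, 167 and 125 CPM (log2 fold change 1.39 ± 0.29 (SE), adjusted p = 0.161 by edgeR). The other genes called higher by DESeq2 included Bcam (a laminin receptor), Crip1, Moxd1, Sorl1, Megf6 and Robo2. The other genes called lower included Rhov, Rhou, 2310046K23Rik, Blnk, Nectin4, Dapl1, Pmp22, Map1b, Homer2, Sh3kbp1, Pof1b, Pdzk1ip1, Lypd3, Anxa1, Perp and Btg1.

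Between ages, the members of 1 mouse were set beside the members of another, with no test. A gene counted as past 2-fold when its CPM ratio was at least 2 either way with 0.5 counts added, among genes with at least 30 UMIs in both libraries together and 20 CPM in at least 1. From P38 to 6 months 368 of 4320 genes were past 2-fold higher (8.52%) and 271 lower (6.27%), in all 14.8%. From 6 to 12 months 118 of 3666 were higher (3.22%) and 331 lower (9.03%), in all 12.2%, and from P38 to 12 months 327 of 4278 were higher (7.64%) and 550 lower (12.9%), in all 20.5%. These 3 comparisons share libraries and are not independent. Counts of list genes given below are to be read beside these shares of all genes. The medians of all measured genes lay at log2 ratios of 0.14, -0.14 and 0.00, and TMM scaling moved them to -0.11, -0.01 and -0.13. With TMM scaling the counts were 176 higher and 423 lower, 147 higher and 251 lower, and 231 higher and 658 lower, so the higher calls from P38 to 6 months went from 57.6% to 29.4% of all calls. From 6 to 12 months the share went from 26.3% to 36.9%, and from P38 to 12 months from 37.3% to 26.0%. List medians near that of all genes changed sign with the scaling, and those given here kept their sign. Single genes are named as past 2-fold without TMM scaling, and those close to the limit can lose that call with it.

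Most heat shock genes and 13 of 22 AP-1 and immediate early genes were past 2-fold lower at 12 months than at P38, against 12.9% of all genes measured. Of 15 heat shock genes 3 were past 2-fold lower at 6 months than at P38, 10 at 12 months than at 6 months and 11 at 12 months than at P38, none was past 2-fold higher, and the medians were -0.30, -1.16 and -1.54. Hspa1a, the inducible HSP70, stood at 3242, 1833 and 159 CPM in the members (log2 ratio -4.34, 95% interval -4.72 to -4.00, 12 months over P38). Hspb1 stood at 9216, 4015 and 1291 CPM (log2 ratio -2.83, 95% interval -2.96 to -2.71), and Hspa8, the constitutive HSP70, at 4867, 2519 and 1141 CPM (log2 ratio -2.09, 95% interval -2.23 to -1.96). The order was not the same in every class, with Hspa1a at 3359.7, 3062 and 167 CPM in the hair germ, 740.0, 1068 and 173 CPM in Lgr6 cells and 466, 979 and 181 CPM in IFE basal cells. Of the AP-1 and immediate early genes none was past 2-fold higher in that comparison, with a median of -1.13. Atf3, a stress-induced factor, stood at 3625, 2330.4 and 774 CPM, Klf6 at 1183, 935 and 239.7 CPM and Nr4a1 at 1004, 617 and 350.3 CPM. Fos differed by less than 2-fold between ages, and Fosb stood at 2043, 700.3 and 1404 CPM with its lowest value at 6 months. Such genes are known to respond to tissue dissociation, and whether handling differed between the libraries was not tested.

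**Figure D4:**
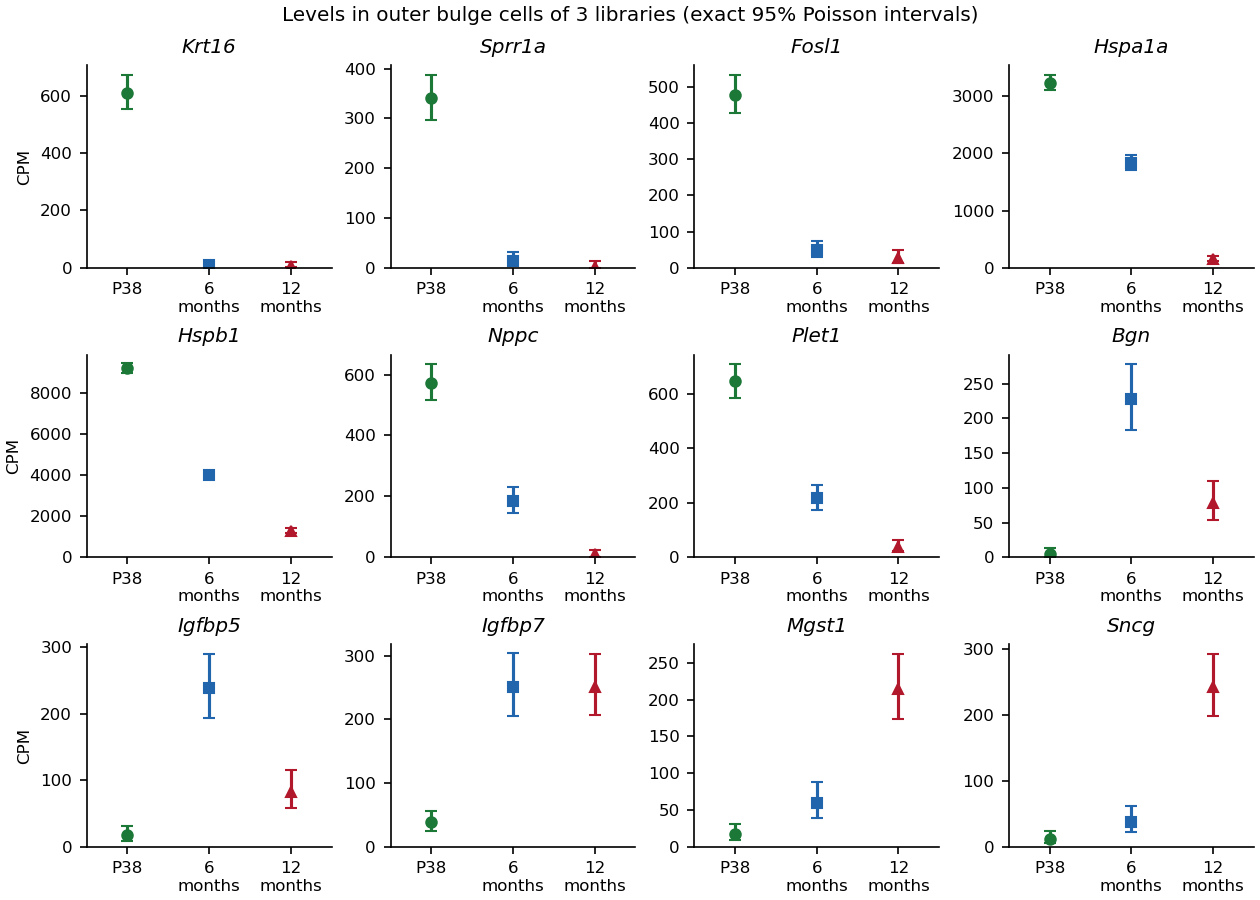
CPM on a linear axis of 12 genes in the summed members of each library (P38, 6 months, 12 months), with exact Poisson 95% intervals that cover counting error only. Krt16, Sprr1a, Fosl1, Hspa1a, Hspb1, Nppc and Plet1 are highest at P38, Bgn and Igfbp5 at 6 months, and Mgst1 and Sncg at 12 months, and Igfbp7 is higher at 6 and 12 months than at P38.

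Krt16, Sprr1a and Fosl1 stood highest at P38. Krt16, a keratin of activated epidermis, stood at 610.4, 9.56 and 6.91 CPM (95% interval 553 to 673 CPM at P38 and 1.43 to 20.2 at 12 months). Sprr1a stood at 340.3, 14.3 and 2.305 CPM (95% interval 298 to 387 CPM at P38 and 0.0584 to 12.8 at 12 months). Fosl1, an AP-1 subunit of migrating keratinocytes, stood at 478, 47.8 and 27.7 CPM (log2 ratio -4.05, 95% interval -5.08 to -3.29, 12 months over P38). In IFE basal cells Krt16 stood at 306, 257 and 64.9 CPM and Fosl1 at 487, 374 and 119.6 CPM, so the order of the ages was the same there with a smaller range. Plet1, a surface protein of the junctional zone, stood at 646, 218 and 39.2 CPM in the members and 798, 785 and 100.4 CPM in IFE basal cells. Nppc, the precursor of C-type natriuretic peptide, stood at 573, 184 and 9.22 CPM in the members (log2 ratio -5.79, 95% interval -7.84 to -4.59, 12 months over P38), 1174, 763 and 50.96 CPM in the hair germ and 24.0, 13.2 and 16.7 CPM in inner bulge cells. Of 9 keratins measured between P38 and 12 months, Krt6a, Krt14, Krt16 and Krt17 were past 2-fold lower and Krt80 higher, and Krt6a is limited by the gate. Of all genes measured 12.9% were lower and 7.64% higher. Serpinb11, a serine protease inhibitor, stood at 294, 0 and 136 CPM, which is at least 41.0-fold lower at 6 months than at P38 with the 6 months level set to 3 UMIs. The 10 largest ratios downward from P38 to 6 months also held Eif3j1, Krtap17-1, Gm2000, Rnf121, Ly6d and Uap1, and those from P38 to 12 months held Krtap17-1, Hmox1 (heme oxygenase), Krtdap and Hsph1. Hmox1 stood at 149, 31.1 and 2.305 CPM and Uap1, an enzyme of amino sugar synthesis, at 419, 52.6 and 101 CPM.

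Bgn, Igfbp5 and Gdf10, which code for secreted proteins, stood highest at 6 months, the anagen library. Bgn (biglycan) stood at 4.48, 227 and 78.4 CPM (log2 ratio 5.45, 95% interval 4.07 to 7.97, 6 months over P38) and at 5.02, 12.4 and 23.9 CPM in Lgr6 cells. Igfbp5, an IGF-binding protein, stood at 17.9, 239 and 83.0 CPM (log2 ratio 3.69, 95% interval 2.87 to 4.74), and Igfbp7 at 38.8, 251 and 251 CPM, with P38 lowest and the later ages at nearly the same level. Both bulge layers had this pattern for Igfbp5, with 2.25, 281 and 16.7 CPM in inner bulge cells, and the hair germ did not exceed 5.27 CPM. The 5 fibroblast markers summed to 19.4, 66.9 and 64.5 CPM in the members, and their part in Bgn, Igfbp5 and Igfbp7 was not tested. Gdf10, a ligand of the TGF-beta family, stood at 0, 100.4 and 0 CPM, so it was at least 22.4-fold higher at 6 months than at P38 and at least 14.5-fold higher than at 12 months, with the libraries at 0 set to 3 UMIs. All 3 measured Wnt inhibitors, Dkk3, Sfrp1 and Sostdc1, were past 2-fold higher at 6 months than at P38. Sfrp1 stood at 515, 1599 and 885 CPM (log2 ratio 1.63, 95% interval 1.45 to 1.83) and Sostdc1 at 239, 619 and 371 CPM (log2 ratio 1.37, 95% interval 1.08 to 1.67). Dkk3 stood at 88.1, 232 and 286 CPM with its highest value at 12 months. With a lower count minimum, which let in more inhibitors with few UMIs, the median of the list went from 1.39 to -0.06. Among the 13 Wnt ligands and receptors measured, Wnt4 at 31.3, 134 and 57.6 CPM and Fzd7 at 37.3, 122 and 101 CPM were past 2-fold higher at 6 months and none was lower.

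BMP genes were split between P38 and 6 months. Of 16 measured, Gdf10, Grem1 and Id4 were past 2-fold higher at 6 months and Bmp2, Fst and Id1 were lower. Of all genes measured 8.52% were higher and 6.27% lower. Bmp2, a ligand of quiescence, stood at 128, 21.5 and 34.6 CPM (log2 ratio -2.51, 95% interval -3.75 to -1.59), Fst (follistatin, an activin and BMP antagonist) at 1725, 473 and 413 CPM (log2 ratio -1.86, 95% interval -2.09 to -1.65) and Id1 at 833, 359 and 396 CPM (log2 ratio -1.21, 95% interval -1.49 to -0.95). All 3 were past 2-fold lower at 12 months than at P38 too. Grem1 stood at 207, 416 and 544 CPM (log2 ratio 1.39, 95% interval 1.08 to 1.70, 12 months over P38). Among transcription factors, Lhx2, Foxc1, Tbx1 and Barx2 were past 2-fold higher at 6 months than at P38 and Id1 and Klf5 lower, and from 6 to 12 months 1 of 17 measured was past 2-fold (Barx2, lower). With TMM scaling, which lowers every ratio of 6 months over P38, Grem1 and Foxc1 fell under 2-fold. Lhx2 stood at 294, 753 and 578 CPM (log2 ratio 1.36, 95% interval 1.10 to 1.62), and its share of thinned members went from 51.1% at P38 to 89.2% at 6 months. Nfatc1, a factor of stem cell quiescence, stood at 243, 148 and 118 CPM (log2 ratio -1.04, 95% interval -1.53 to -0.59, 12 months over P38). Of the D cyclins, Ccnd2 was highest at 6 months at 113, 249 and 66.8 CPM and Ccnd1 was lowest there at 29.8, 11.95 and 66.8 CPM, and the inhibitor Cdkn1a (p21) stood at 337, 167 and 143 CPM. Lgr6 cells also had their highest Ccnd2 at 6 months, at 274, 681 and 361 CPM.

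Hypoxia and glycolysis genes did not all move one way. Of 21 measured, 6 were past 2-fold higher at 6 months than at P38 and 2 (Hk2 and Ndrg1) were lower (median 0.63 against 0.14 for all genes), and of 20 measured 8 were lower at 12 months than at 6 months and none higher (median -0.88 against -0.14). Eno1 (enolase) stood at 89.5, 244 and 94.5 CPM (log2 ratio 1.44, 95% interval 0.97 to 1.93, 6 months over P38), and Egln3, a prolyl hydroxylase that hypoxia induces, at 41.8, 88.4 and 16.1 CPM (log2 ratio -2.37, 95% interval -3.87 to -1.27, 12 over 6 months). Ndrg1, a stress-induced gene, stood at 459.7, 219.9 and 143 CPM, highest at P38. In IFE basal cells Eno1 and Egln3 were also highest at 6 months, with Eno1 at 244, 373 and 198 CPM and Egln3 at 82.6, 106 and 21.8 CPM. Oxidative phosphorylation genes had a median of 0.39 from P38 to 6 months, with 69 of 80 higher, 3 past 2-fold higher and 1 past 2-fold lower. Both shares past 2-fold were below those of all genes measured, at 8.52% and 6.27%. Ribosomal protein genes had a median of 0.49 from P38 to 12 months with 76 of 80 higher, 1 of them past 2-fold (Rpl35), and their share of member UMIs was 20.8%, 22.4% and 28.9%. Of 20 matrix genes measured, 7 were past 2-fold lower at 12 than at 6 months and 2 higher, with a median of -0.81. Of all genes measured 9.03% were lower and 3.22% higher, with a median of -0.14. Sparc, a collagen-binding matrix protein, stood at 655, 645 and 251 CPM (log2 ratio -1.36, 95% interval -1.70 to -1.04, 12 over 6 months) and Ccn2 at 731, 201 and 502 CPM (log2 ratio 1.32, 95% interval 0.95 to 1.70). Postn and Ptn differed by less than 2-fold in all 3 comparisons.

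**Figure D5:**
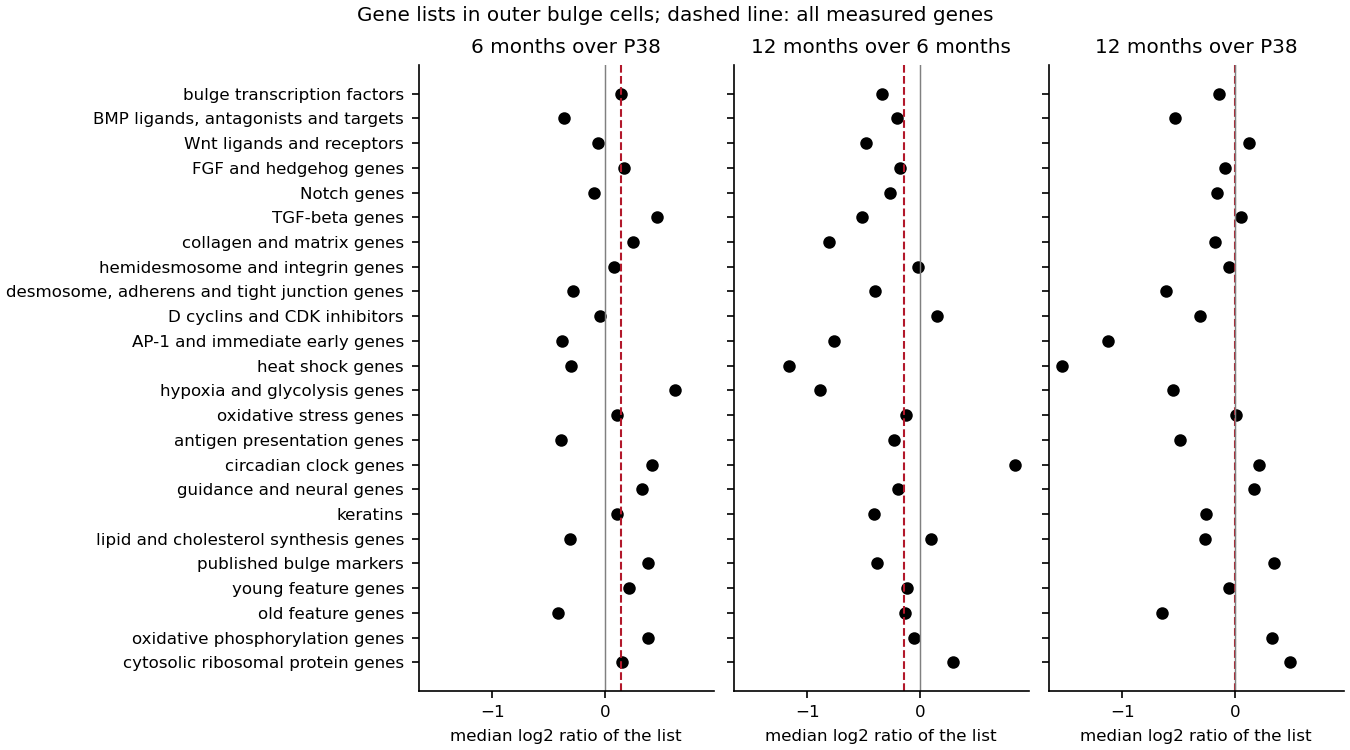
Median log2 ratio of gene lists in the members for P38 to 6 months, 6 to 12 months and P38 to 12 months, with the median of all measured genes as a dashed line. Heat shock and AP-1 genes lie below the line in all 3 comparisons, hypoxia and glycolysis genes lie above it and then below it, and circadian clock genes lie above it from 6 to 12 months.

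Other genes stood highest at 12 months. Sncg (gamma-synuclein) stood at 11.9, 38.2 and 242 CPM in the members (log2 ratio 4.26, 95% interval 3.31 to 5.59, 12 months over P38), 66.00, 87.8 and 301 CPM in inner bulge cells and no more than 13.7 CPM in IFE basal cells. Of the other genes with the largest ratios upward from P38 to 12 months, Cck (cholecystokinin) stood at 10.4, 86.05 and 131 CPM, Cbr2 (carbonyl reductase) at 23.9, 90.8 and 226 CPM and Fam71a at 8.95, 117 and 154 CPM. Hpgd, which breaks down prostaglandins, stood at 19.4, 0 and 159 CPM, at least 22.2-fold higher at 12 than at 6 months with the 6 months level set to 3 UMIs. Mgst1, a microsomal glutathione transferase, stood at 17.9, 59.8 and 214 CPM (log2 ratio 3.53, 95% interval 2.71 to 4.58), while in Lgr6 cells it stood at 87.5, 60.98 and 24.1 CPM, in the opposite order. The 5 sebaceous gland markers, of which Mgst1 is 1, summed to 94.02, 146 and 274 CPM in the members. Mmp2, a gelatinase, stood at 16.4, 14.3 and 138 CPM (log2 ratio 3.02, 95% interval 2.13 to 4.15) and did not exceed 7.85 CPM in Lgr6 cells. Of 8 circadian clock genes measured between 6 and 12 months, Nr1d1, Nr1d2, Dbp and Tef, which share a phase of the day, were past 2-fold higher and Nfil3 was lower. Dbp stood at 1.49, 7.17 and 71.4 CPM and Nr1d1 at 16.4, 31.1 and 127 CPM in the members, while Nr1d1 stood at 25.4, 164 and 65.00 CPM in IFE basal cells. Nfil3 stood at 166, 301 and 34.6 CPM. Other genes among the largest ratios downward from 6 to 12 months were Fscn1 (fascin), Them5, Pthlh (a parathyroid hormone-like peptide) at 201, 184 and 16.1 CPM, Bdnf at 67.2, 169.7 and 11.5 CPM and Ucp2 (a mitochondrial carrier) at 148, 488 and 48.4 CPM. For the clock genes, the hour of sampling is not given in the sources used here. Of 13 antigen presentation genes measured, H2-K1, H2-D1, H2-Q7 and Irf1 were past 2-fold lower at 12 months than at P38 and none was higher, with a median of -0.49. Of all genes measured 12.9% were lower and 7.64% higher.

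Of the young feature genes, a list the study took from earlier bulk RNA sequencing of HF-SCs from other mice, 8 of 59 measured were past 2-fold higher and 11 lower at 12 months than at P38, with a median of -0.05. Of the old feature genes 5 of 54 were higher and 22 lower, with a median of -0.65. Over all genes measured 7.64% were higher and 12.9% lower, with a median of 0.00. The lists came from a comparison of a different pair of ages, so these counts do not repeat that comparison. The study reported that both lists were enriched at the matching ages in its own HF-SCs. Old feature genes among the lower ones included Bhlhe40, Zfp36, Btg2 and Phlda1, of which Zfp36 and Btg2 are also in the AP-1 and immediate early list. Those higher were Prxl2a, Mgst1, Htra1, Aldh3a1 and Ly6e.

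Some of the largest ratios between ages were as large in other classes. Gm10076 stood at 25.4, 865 and 1092 CPM in the members and 32.1, 972 and 1413 CPM in IFE basal cells, and Gstp1 at 5.97, 158 and 80.7 CPM and 1.61, 81.7 and 46.9 CPM. P38 was the lowest library for both genes in every class. The file headers name Cell Ranger 6.1.2 for P38 and 6.0.0 for the other libraries, and the part of this in the values was not tested. Gm10076 and other predicted genes (Gm10260, Gm8797, Gm2000 and Gm26802) may share reads with near copies, so their values are uncertain. Xist, the RNA of the inactive X chromosome, stood at 0, 1056 and 0 CPM, and the 6 months mouse was the only female. Hba-a1, an alpha globin, stood at 0, 112 and 20.7 CPM in the members, 1.5, 92.1 and 4.18 CPM in inner bulge cells and 0, 9.06 and 2.62 CPM in Lgr6 cells. It was called higher in the members against both the hair germ and the Lgr6 cells, a call lost without 6 months, and the part of free RNA from red cells was not tested.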

How the data were processed

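The deposited count tables hold whole UMI counts of 32285 genes per cell barcode, which the authors made with 10x Genomics 3′ chemistry (version 3) and Cell Ranger on the mm10 build. The file headers name Cell Ranger 6.1.2 for P38 and 6.0.0 for 6 and 12 months, the processing notes name 6.1.2, and the methods name another release, so the version is uncertain. The P38 library had been published before, and 2 further libraries of the study were not analysed here. Members, gates and gene lists were chosen with earlier results of these data known.

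Cells were kept with over 200 genes, under 5000 genes and under 15% mitochondrial UMIs. UMIs of each class were summed per library, and the 12 sums were tested in edgeR 4.0.16 (quasi-likelihood test, library block plus class, TMM scaling, at least 10 UMIs in at least 3 sums, Benjamini-Hochberg adjusted p under 0.05). SE was derived as the size of the fitted log2 fold change divided by the square root of its quasi-likelihood F statistic. The 3 libraries of a class differ in age and come from separate mice. DESeq2 1.42.0 was an alternative. The steps were tested on simulated data with known changes. Of 2-fold changes 16.0% were recovered against the inner bulge, 12.0% against the hair germ and 30.0% against the Lgr6 upper bulge. Of 4-fold changes 84.8%, 88.0% and 87.9% were recovered in the same order. The simulation gave all genes the same spread and left genes with few UMIs unchanged. It also shifted the outer bulge sums against all classes at once, so recovery in the real data may be lower. Sprr1a, at a log2 fold change of -3.80 against the inner bulge, was not called by edgeR. A gene that was not called may therefore still differ by 2-fold or more.

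Same-library sums of different classes come from the same mouse, which is where the pairing comes from, so the library was kept as a block. Ages have 1 library each and got no test. Their CPM ratios were computed from raw counts with 0.5 added, with exact intervals at 95% that cover counting error only, and a library at 0 was set to 3 counts per library for a bound.

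Cell classes were cut from measured levels of gate genes in the same cells. Scrublet (scanpy 1.11.5) called 4, 0 and 3 doublets at P38, 6 months and 12 months, too few to have worked, so no doublets were removed, and leaving out the highest scores was an alternative. Free RNA was not subtracted. Named genes were the 5 gate genes with Postn, Lhx2 and Grem1, the 10 largest called changes each way in each contrast (1 direction in all 3 libraries, at least 50 CPM in each library of the higher class), the 10 largest age ratios each way (at least 100 CPM, interval wholly past 2-fold), the 20 genes of highest mean CPM, and up to 4 genes of highest CPM per list. Other genes named were chosen after their values were seen. Whether sums overlapped is a description of the named genes, and its share over all genes was not counted. The young and old feature genes came from a table of the study. The number of columns of other samples in the files was 0. Promoter sequences were RefSeq (GRCm38.p6), and gene positions GENCODE vM21. R 4.3.3 ran the tests, with limma 3.58.1, and Python 3.11.15 the rest (scipy 1.17.1, pandas 2.3.3, numpy 2.4.6).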

Additional observations from a re-analysis of the deposited data

Results flagged for a closer look

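In 3 results the libraries differed in direction. Against the hair germ, Mt2 (metallothionein 2) had log2 ratios of 0.54, 1.81 and -2.15 at P38, 6 months and 12 months, with 1173, 562 and 419 CPM in outer bulge cells and 808, 159 and 1872 CPM in hair germ cells (edgeR adjusted p = 0.916). Phlda1 (a pleckstrin homology-like protein) had ratios of -0.29, 3.01 and -2.37 against the hair germ, with 1579, 1563 and 182 CPM in outer bulge and 1930.1, 193 and 949 CPM in hair germ cells (edgeR adjusted p = 0.943). Against the Lgr6 upper bulge, Atf3 had ratios of 1.45, 0.32 and -1.44, with 3625, 2330.4 and 774 CPM in outer bulge and 1331, 1872 and 2110.5 CPM in Lgr6 cells (edgeR adjusted p = 0.920). With 1 library per age these differences between libraries were not tested.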

How the results depend on the processing

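The order of the 3 ages rests on 1 mouse each, with 38 to 61 cells, and cannot be told apart from hair cycle stage, sex, depth and library. Alternatives on the IFE gate overlap, the hair germ Krt15 limit, the spinous cell, cycling members and shared barcodes were chosen after seeing the data. No paired analysis was possible because each age has 1 library, so this holds for the comparisons of ages only.

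Against the Lgr6 cells, 393 genes higher and 298 lower became 179 and 122 with no replicate block, 653 and 695 with only the 6 sums of both classes, and 216 and 154 without cells of the IFE gate. With no filter on low counts 798 were lower. Leaving out 1 library gave 50 to 302 higher and 15 to 190 lower. Against the hair germ, 152 higher and 93 lower became 51 and 20 with no replicate block, 48 and 42 with only the 6 sums, and 326 and 409 with no filter. Leaving out 1 library gave 5 to 122 higher and 4 to 56 lower. Against the inner bulge, 0 called genes became 8 higher and 20 lower by DESeq2, 63 and 145 with no filter, and 13 and 24 with only the 6 sums. The cause of these changes was not tested, apart from the number of sums or genes that enter.

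From P38 to 6 months the counts past 2-fold were 1179 higher and 636 lower with a lower count minimum, 77 and 96 after thinning, and 176 and 423 with TMM scaling. From 6 to 12 months they were 535 and 870 with the lower minimum, and 35 and 111 after thinning. From P38 to 12 months they were 1099 and 999 with the lower minimum, and 84 and 210 after thinning. The shares of members were 1.64%, 1.55% and 1.42% after thinning and 2.29% at 6 months with at least 1000 genes per cell.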
